A study of Mus musculus with 6 samples.

Results

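AP-1 is a family of transcription factors that bind DNA as pairs. The 8 genes described here are 4 of the Fos family (Fos, Fosb, Fosl1 and Fosl2), 3 of the Jun family (Jun, Junb and Jund) and Atf3. The rule that picks them uses gene names and no measured value, although the family was taken up with earlier results of these data known, and all 8 were found among the 50600 gene identifiers of the files. The RNA came from primary cortical thymic epithelial cells (cTECs), the epithelium of the outer thymus that supports early thymocytes and their positive selection, taken from mice aged 8 to 10 weeks. The 3 KO libraries (replicates A, B and C) came from mice of the strain B6.B6CB-Psmb11tm1Smta with the genotype Psmb11-/-, and the 3 WT libraries from Psmb11+/+ mice of the same strain. Psmb11 encodes β5t, a catalytic subunit of the thymoproteasome of cortical epithelium, and the deletion is in the germ line, so every cell of the KO mice carries it. The series compares gene expression between these genotypes. The labels do not say how many mice went into a library or how the cells were sorted, nor whether the 3 libraries of one genotype are from different mice, and the p-values measure only the spread between these libraries.

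Jun proteins pair with one another, with Fos proteins or with Atf3 through a leucine zipper, and the pair binds the AP-1 site or the related cyclic AMP response element. Fos proteins do not form stable pairs with themselves and need a Jun partner. Fos, Fosb, Jun, Junb and Atf3 are immediate early genes: they are transcribed within minutes of growth factors, stress or tissue handling, from stored signalling proteins, and their mRNAs are short-lived. Fosl1 and Fosl2 usually follow later, and Jund is held at a steadier level in many cells. Because enzymatic and mechanical dissociation of a tissue can induce these genes, their level in freshly isolated cells can reflect handling as well as the state in the tissue.

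The libraries held 34265035 to 39224292 gene counts. The deleted gene, Psmb11, had 67, 36 and 41 counts in the KO libraries (A, B, C) and 8293, 9297 and 10027 in the WT libraries, for a log2 fold change of -7.56 (edgeR quasi-likelihood, adjusted p = 1.03e-13). Of 18 markers of cortical epithelium 13 fell and 3 rose in KO, while 10.7% of all genes tested were called lower and 12.3% higher. CPM is the count scaled to the library's total with TMM factors. Prss16, a thymic serine protease, fell but was still at 753 CPM in KO libraries against 1738 in WT. Ccl25 had 344 CPM in KO and 734 in WT, and Cd83 had 42.7 and 125 CPM. Markers of other cells were present and mostly higher in KO: the summed level of 17 fibroblast and pericyte markers was 1778 to 1872 CPM in KO and 1271 to 1423 CPM in WT, with 12 of 17 called higher, against the same 12.3%. That of 14 dendritic cell and macrophage markers was 86.0 to 92.2 CPM in KO and 50.7 to 58.2 CPM in WT, with 8 called higher (5 without KO replicate A and 5 without WT replicate A), and 6 more markers of these cells had 21 counts or fewer in any library and were not tested. Medullary epithelial markers (13 of 18) and tuft cell markers (9 of 12) were also called higher, against 12.3% of all genes. The sum of 11 endothelial markers overlapped, at 26.1 to 71.7 CPM in KO and 22.3 to 53.1 CPM in WT. That of 19 thymocyte markers did so too, at 102 to 177 CPM and 102 to 120 CPM, with KO replicate A highest. Fibroblasts, pericytes and macrophages can express AP-1 genes themselves, and their part in the results below was not tested beyond the fits with their markers as a covariate given further on. In bulk RNA, fewer cells of a type and less RNA per cell cannot be told apart.

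The promoters of 4 members are printed because they belong to 3 members that differed between the genotypes (Fos, Jun and Atf3) and to the member that did not pass the test (Junb). Each is the 250 bases before the RefSeq start site (build GRCm38.p6), read 5′ to 3′ along the gene's own strand, and positions count backwards from the start site. Capitals mark every match to 6 motifs searched on both strands: TGANTCA (the AP-1 site), TGACGTCA (the cyclic AMP response element), TGACG (the left part of that element), TGACNTCA (which includes it), TATAAA, and the CArG box, which serum response factor binds.
Fos promoter, chr12:85473640-85473889, plus strand: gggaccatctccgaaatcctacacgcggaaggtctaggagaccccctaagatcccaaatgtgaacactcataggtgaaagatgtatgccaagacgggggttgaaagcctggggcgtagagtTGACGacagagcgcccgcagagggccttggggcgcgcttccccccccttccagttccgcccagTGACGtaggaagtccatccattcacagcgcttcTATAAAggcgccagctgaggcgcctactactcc
Jun promoter, chr4:95052223-95052472, minus strand: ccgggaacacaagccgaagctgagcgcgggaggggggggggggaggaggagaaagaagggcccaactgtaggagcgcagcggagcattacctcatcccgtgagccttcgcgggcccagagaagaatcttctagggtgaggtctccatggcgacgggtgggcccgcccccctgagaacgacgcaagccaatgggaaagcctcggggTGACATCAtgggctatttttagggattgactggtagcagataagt
Atf3 promoter, chr1:191183334-191183583, minus strand: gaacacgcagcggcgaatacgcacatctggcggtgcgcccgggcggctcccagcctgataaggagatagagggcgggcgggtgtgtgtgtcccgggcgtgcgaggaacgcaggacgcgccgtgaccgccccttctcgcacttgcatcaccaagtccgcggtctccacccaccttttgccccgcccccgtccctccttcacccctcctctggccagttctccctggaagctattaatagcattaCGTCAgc
Junb promoter, chr8:84978749-84978998, minus strand: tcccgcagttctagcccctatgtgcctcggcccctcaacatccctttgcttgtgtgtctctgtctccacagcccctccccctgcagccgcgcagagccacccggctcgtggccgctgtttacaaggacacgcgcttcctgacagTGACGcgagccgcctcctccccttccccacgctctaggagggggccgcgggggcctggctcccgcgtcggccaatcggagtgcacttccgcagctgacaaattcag
The Fos window holds TATAAA at -33 to -28 and TGACG at -129 to -125 and at -66 to -62. The Jun window holds TGACATCA, a match to TGACNTCA, at -45 to -38. The Atf3 window holds TGACG on the opposite strand, printed as CGTCA, at -7 to -3, and the Junb window holds TGACG at -106 to -102. The search also covered the first 50 bases after each start site, which are not printed, and found 1 match there in these 4 genes, TATAAA at 1 to 6 in Junb. Among 32851 promoter windows of the full 300 bases (250 before and 50 after the start) in the same RefSeq table, TGACG occurred in 20.8%, TATAAA in 13.6%, TGACNTCA in 8.83%, TGANTCA in 7.81%, TGACGTCA in 1.79% and the CArG box in 1.63%. TGANTCA, TGACGTCA and the CArG box had no match in the 7 member windows, which says only that these letters are not there. The RefSeq starts used here can differ from the gene positions given below. The printed Junb window ends at 84978749, upstream of the gene start at 84978718 on the minus strand. The Junb TATAAA also lies upstream of that gene start. The printed Atf3 window ends at 191183334, inside the gene, which starts at 191218039. The Jund window, not printed, ends its upstream part at 70697738, and the gene starts at 70698949.

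Of the 8 AP-1 genes 7 were higher in the KO libraries than in the WT libraries, and Junb had the same sign without passing the test. The rises were small, from 1.14-fold for Jund to 1.87-fold for Fosl1, with Fos, Fosb, Fosl2 and Atf3 between 1.28-fold and 1.40-fold. All but Fosl1 and Fosl2 ranked among the 209 most abundant genes of every library by TPM, an estimate of transcript abundance per length. The threshold for a call was an adjusted p (Benjamini-Hochberg, 16938 genes tested) below 0.05. Of the 8 members 7 (87.5%) were called higher, against 12.3% of all genes tested, while 10.7% were called lower and 23.0% in either direction. With DESeq2 8 of 8 were called higher, against 11.8% of all genes. No member was called lower with edgeR or DESeq2. For 7 of 8 members no KO library overlapped the WT range in CPM, against 39.3% of all genes in either direction and 19.2% with KO higher. The median log2 fold change was 0.39 over the 8 members and -0.00 over all genes tested.

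**Figure D1:**
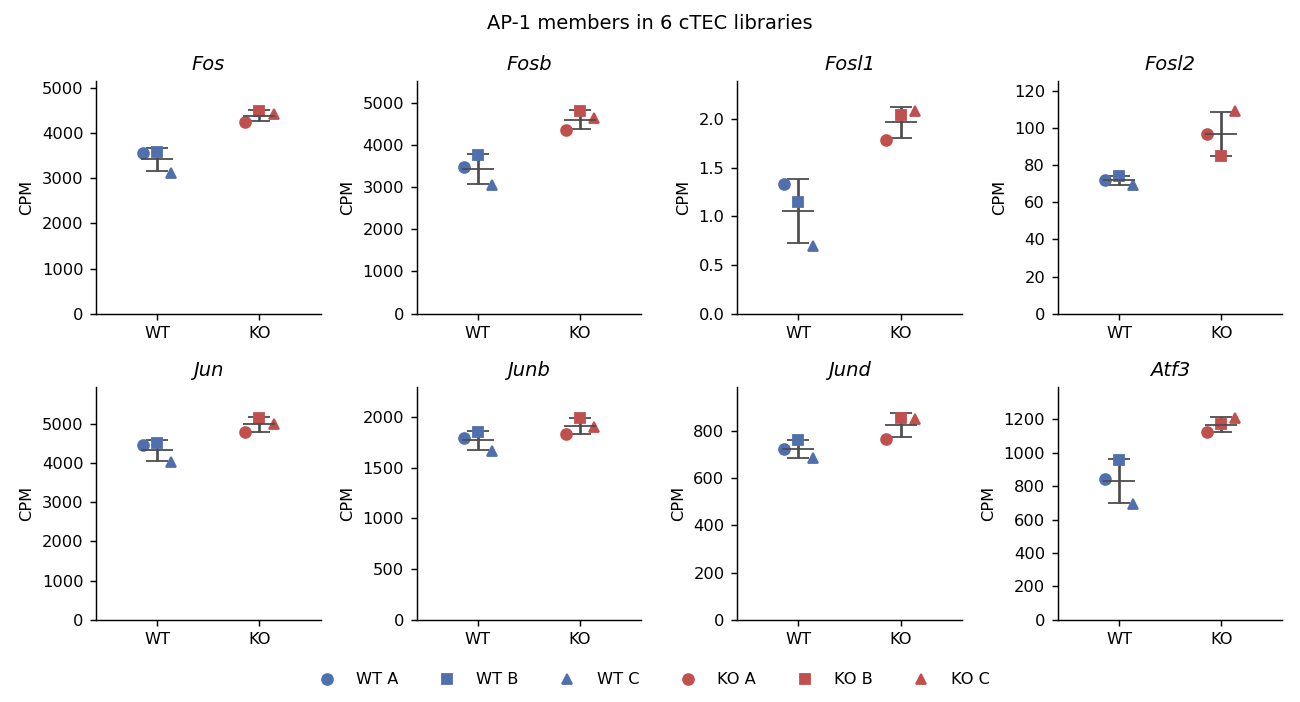
Level of each AP-1 gene in CPM (y axis, from 0) in the 3 WT and 3 KO libraries, with replicates A, B and C as circle, square and triangle; the bar marks the mean and the whiskers the SD. The KO points lie above all WT points in 7 panels and overlap them for Junb.

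Fos, the founding member and a partner of the Jun proteins (ENSMUSG00000021250.13, chromosome 12, 85473890 to 85477273, plus strand, GRCm38), stood at 4244, 4483 and 4434 CPM in the KO libraries (A, B, C) and at 3561, 3577 and 3127 CPM in the WT libraries. All KO libraries were above all WT libraries, and the gap between the groups was wider than the spread within KO. The means were 4387 ± 126 CPM in KO against 3422 ± 255 in WT (SD, n = 3 each), a log2 fold change of 0.36 ± 0.05 (SE; edgeR quasi-likelihood, adjusted p = 2.74e-04). Fosb, its closest relative, which also gives a shortened protein by splicing (ENSMUSG00000003545.3, chromosome 7, 19302696 to 19310051, minus strand), had 4360, 4793 and 4641 CPM in KO against 3479, 3764 and 3047 in WT. The groups again did not overlap, with WT replicate C lowest, and the log2 fold change was 0.42 ± 0.06 (SE; edgeR adjusted p = 5.10e-04). These are gene totals, so the splice forms of Fosb were not told apart.

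The later Fos genes were far less abundant. Fosl2 (chromosome 5, 32135801 to 32157842, plus strand) had 96.7, 85.0 and 109 CPM in KO against 71.9, 74.2 and 69.4 in WT, with KO more spread than WT and no overlap. Its log2 fold change was 0.43 ± 0.07 (SE; edgeR adjusted p = 9.39e-04). Fosl1 (chromosome 19, 5447547 to 5455946, plus strand), which encodes Fra-1, an AP-1 factor best known from moving and wounded epithelium, had 66, 75 and 71 counts in KO and 46, 41 and 27 counts in WT, or 1.78, 2.04 and 2.08 CPM against 1.34, 1.14 and 0.691 CPM. The KO libraries were close together and above WT, where replicate C had the fewest reads. The log2 fold change was 0.90 ± 0.25 (SE; edgeR adjusted p = 0.0223), the largest of the 8 members and the one with the fewest reads behind it.

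Fosl1 lies across Ccdc85b, a gene on the opposite strand, and 1163 of its 2033 exonic bases are shared with that gene's exons. Ccdc85b had 642 to 663 counts in KO and 639 to 657 in WT, and the column for the other strand held 4.30% to 4.53% of gene counts per library. How many Fosl1 reads came from the opposite strand was not tested. With counts made without strand the log2 fold change of Fosl1 was 0.40 (edgeR adjusted p = 0.263). Its call was also lost without KO replicate B or C (adjusted p = 0.0610 and 0.0620), and when WT replicate B or C was left out (0.0563 and 0.0855).

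Jun, the central partner that can also pair with itself (ENSMUSG00000052684.4, chromosome 4, 95049034 to 95052222, minus strand, a single exon), was the most abundant member by CPM. It had 4795, 5160 and 4992 CPM in KO against 4446, 4514 and 4021 in WT. The genotypes did not overlap, but the lowest KO library was close to the highest WT library. The log2 fold change was 0.20 ± 0.05 (SE; edgeR adjusted p = 0.00675), less than that of Fos. Jund (chromosome 8, 70698949 to 70700616, plus strand, a single exon) had 765, 857 and 851 CPM in KO against 722, 763 and 684 in WT. KO replicate A was barely above WT replicate B, so the groups only just did not overlap. Its log2 fold change was 0.19 ± 0.05 (SE; edgeR adjusted p = 0.0174), and it was not called when KO replicate B or C (0.0695 and 0.0626) or WT replicate A or C (0.0553 and 0.0878) was left out, nor with limma on log2(TPM + 1) (0.0837).

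Junb, a Jun protein that can restrain the activity of Jun (chromosome 8, 84974484 to 84978718, minus strand), had 1830, 1994 and 1905 CPM in KO against 1791, 1854 and 1665 in WT. KO replicate A was below WT replicate B, so the groups overlapped. The log2 fold change of 0.11 ± 0.05 (SE) did not pass the test (edgeR adjusted p = 0.102), though it did without KO replicate A (0.0393) and with DESeq2 (0.0499). The value was 0.08 without KO replicate B (adjusted p = 0.311) and 0.07 without WT replicate C (0.365).

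Atf3, a stress-induced factor that represses many of its targets and pairs with Jun proteins (ENSMUSG00000026628.13, chromosome 1, 191170296 to 191218039, minus strand), had 1122, 1174 and 1211 CPM in KO against 844, 959 and 696 in WT. The KO libraries were close together, while WT replicate C was well below the other WT libraries. The log2 fold change was 0.49 ± 0.08 (SE; edgeR adjusted p = 0.00139), the largest among members above 100 CPM. When the test was against a fold change of 1.2 instead of no change, Atf3 was the 1 member called (adjusted p = 0.0426), with 4.58% of all genes called higher. With robust estimation of dispersions in edgeR, an alternative chosen after the data were seen, Atf3 was not called (adjusted p = 0.0567), while the 6 other called members were, with 12.5% of all genes called higher.

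**Figure D2:**
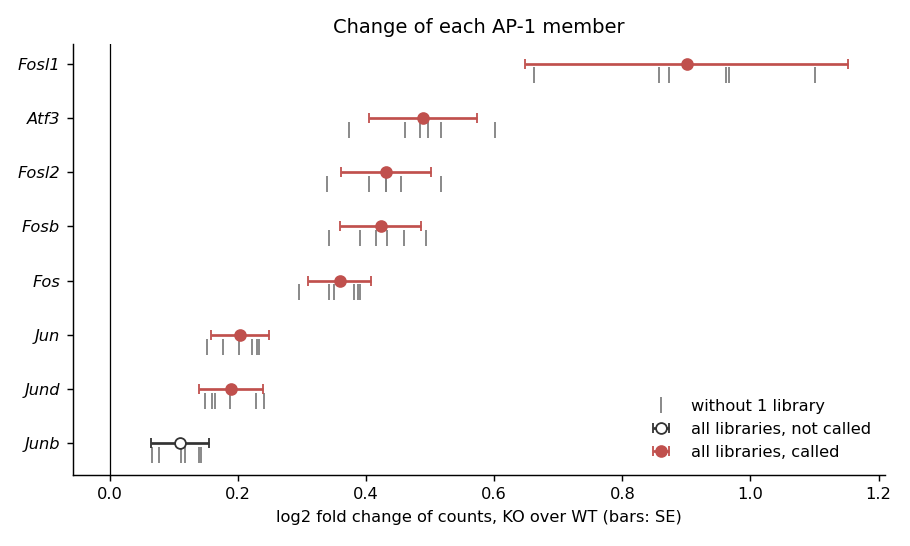
Log2 fold change, KO over WT, of each AP-1 gene (x axis) with its SE from the edgeR fit; filled points were called at an adjusted p below 0.05, the open point (Junb) was not, and grey ticks are the values without 1 of the 6 libraries. All ticks lie above 0, and the order runs from Junb (0.11) to Fosl1 (0.90).

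Levels of different genes were compared as TPM, which corrects for transcript length. Fos had the highest TPM of the 8, with 4615 ± 129 in KO and 3483 ± 317 in WT (SD, n = 3 each), and stood at rank 9 to 24 among all genes of a library. Jun followed with 2914 ± 109 TPM in KO and 2468 ± 157 TPM in WT, at rank 24 to 45. Fosb and Junb changed places: in KO Fosb was higher in every library (2416 ± 129 against 2081 ± 92.2 TPM), while in WT Junb was higher in every library (1881 ± 111 against 1765 ± 214 TPM) by less than the spread of Fosb. Atf3 and Jund had 1131 ± 61.1 and 858 ± 55.4 TPM in KO and did not differ beyond their spread in WT, at 769 ± 136 and 741 ± 45.3 TPM. Fosl2 was lower still, at 28.4 ± 3.64 and 20.1 ± 0.627 TPM, and Fosl1 was the least abundant, at 1.96 ± 0.155 and 0.940 ± 0.252 TPM.

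Summed over the 8 genes, the level was 13425 to 14522 TPM in KO libraries and 10082 to 11996 TPM in WT libraries. The Jun family held a smaller part of this sum in KO, and the Fos family and Atf3 a larger one. The Jun family made up 41.4% to 42.0% of the summed member TPM in KO and 44.8% to 47.2% in WT, and the Fos family 50.0% to 50.4% in KO and 46.5% to 47.7% in WT. Atf3 made up 7.90% to 8.22% in KO and 6.26% to 7.53% in WT. None of these 3 ranges overlapped between the genotypes. They are shares of one sum, so a gain in one is a loss in another, and they are given without a test.

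**Figure D3:**
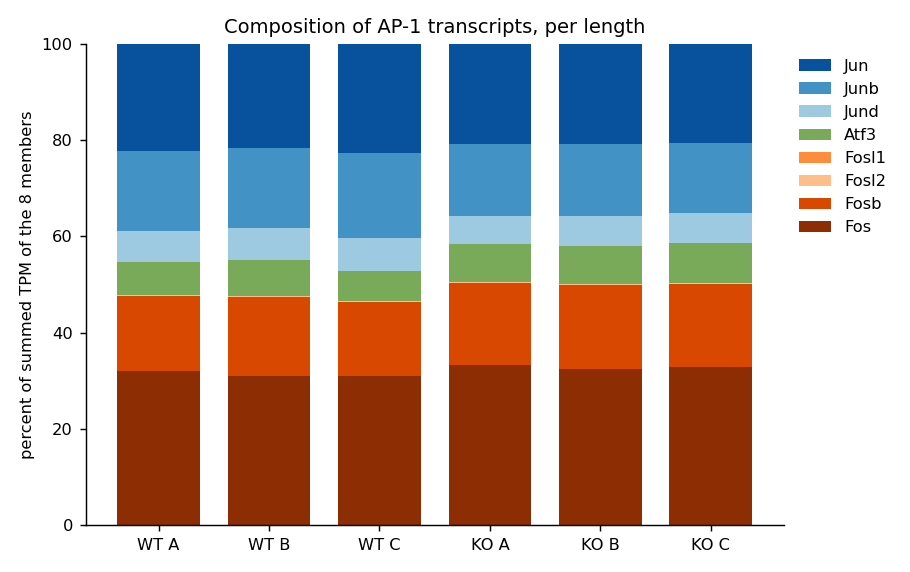
Share of each AP-1 gene in the summed TPM of the 8 members (y axis, percent) in each library. The blue segments of the Jun family fill 44.8% to 47.2% of the bars in WT and 41.4% to 42.0% in KO.

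The members shared a pattern within each genotype. WT replicate C had the lowest value of the 3 WT libraries for all 8 members, and KO replicate A had the lowest of the 3 KO libraries for all but Fosl2. The share of all genes tested with the same libraries lowest was not counted, so this order is not shown to be particular to the members. Likeness was measured as the root mean square difference between log2 CPM values, each gene centred on its own mean over 6 libraries. By this measure Fos and Fosb were each most like one another (0.05), as were Jun and Jund (0.04), and Atf3 was most like Fosb (0.06). Among genes outside the family with at least 20 CPM, Fos was most like Egr1, another immediate early factor (0.03, with 3856 CPM in KO against 2997 in WT), and Myd88, a Toll-like receptor adaptor (0.04). Atf3 was most like Maff, a small Maf factor (0.05), and Nfkbiz, a nuclear regulator of NF-kappaB (0.06). Jun was most like Pfkfb2 and Atxn2l (0.03 each). A small difference partly reflects a small fold change, so these values describe 6 libraries and carry no test.

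Other immediate early genes rose with the AP-1 genes. Of 34 early genes outside the family 32 were called higher (12.3% of all genes were), with a median log2 fold change of 0.36 against -0.00 over all genes tested. Klf6, a zinc finger factor, had 579 ± 7.91 CPM in KO against 391 ± 25.2 in WT (SD, n = 3 each), and the nuclear receptor Nr4a1 had 97.2 ± 8.21 and 58.9 ± 4.63 CPM. Ier5 and the matricellular gene Ccn1 were 1.30-fold and 1.27-fold higher. The 2 genes not called were Tob1 and Ier3, named after their values were seen, with log2 fold changes of 0.08 and 0.03. The summed level of these 34 genes was 13539 to 14690 CPM in KO and 10479 to 11966 CPM in WT, with KO replicate A and WT replicate C lowest in their groups, as for the AP-1 genes.

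Heat shock genes are the other group that tissue dissociation is known to induce. Of 18 such genes 4 were called higher (22.2%, against 12.3% of all genes called higher), with a median log2 fold change of 0.09. Dnajb1, an Hsp40 co-chaperone, had 365 ± 9.75 CPM in KO against 254 ± 33.8 in WT (SD, n = 3 each), and Dnaja1 and Hspb1 had log2 fold changes of 0.39 and 0.33. The inducible Hsp70 genes, named after their values were seen, did not pass the test. Hspa1a had 304 ± 65.6 and 287 ± 19.3 CPM in KO and WT, and Hspa1b 383 ± 75.8 and 339 ± 22.9 CPM. The summed heat shock level overlapped between the genotypes, at 6094 to 6924 CPM in KO and 5936 to 6494 CPM in WT. Hsp90ab1, named after its values were seen, was the largest part of this sum, with 2177 CPM in KO and 2279 in WT. The mean log2 CPM of the 18 genes, which weighs each gene alike, overlapped too, at 7.41 to 7.58 in KO and 7.30 to 7.46 in WT. The handling time and digestion of each library are not given in the labels, and their part in the AP-1 values was not tested.

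**Figure D4:**
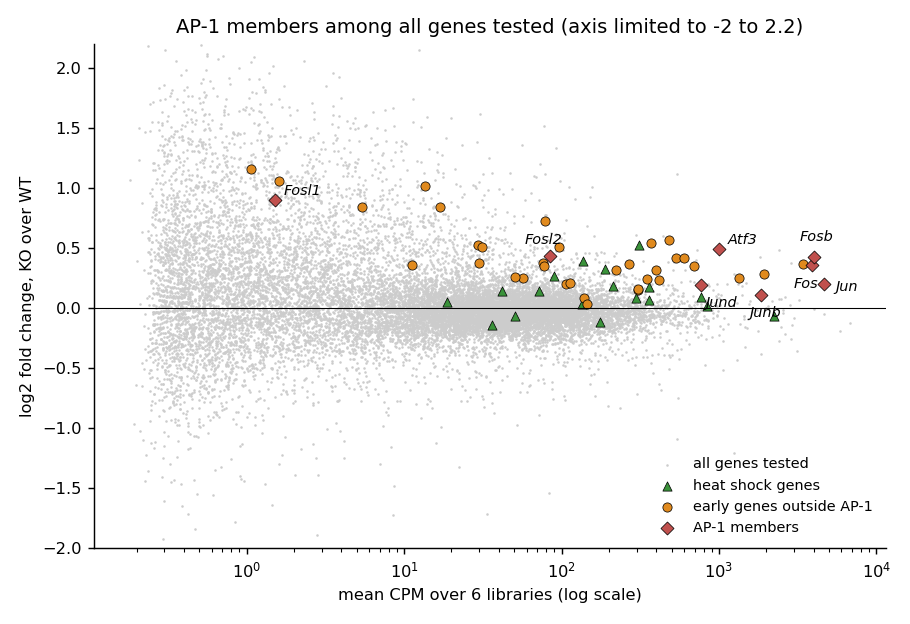
Log2 fold change, KO over WT (y axis, limited to -2 to 2.2), against mean CPM over 6 libraries (log x axis) for the genes tested (grey), the 8 AP-1 genes (diamonds), 34 other early genes (circles) and 18 heat shock genes (triangles). The AP-1 and early genes lie above 0, with medians of 0.39 and 0.36, and the heat shock genes spread from below 0 to 0.52 (Dnajb1), with a median of 0.09.

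With the mean level of the heat shock genes as a covariate, 4 members were called higher, Fos (0.30), Fosb (0.38), Fosl2 (0.28, from 0.43 without the covariate) and Atf3 (0.39), against 6.98% of all genes. Jun and Jund had log2 fold changes of 0.17 each and were not called (edgeR adjusted p = 0.0997 and 0.143), nor was Fosl1 (0.64, adjusted p = 0.209). With the dendritic cell and macrophage markers as the covariate Fos, Fosb, Jun and Jund were called (2.17% of all genes were higher), and Atf3 (0.66, adjusted p = 0.0823), Fosl2 (0.38, adjusted p = 0.252) and Fosl1 (1.50, from 0.90 without the covariate, adjusted p = 0.162) were not. With the fibroblast and pericyte markers as the covariate no AP-1 gene was called higher, nor was any other gene (0.00%; edgeR adjusted p of 0.722 for Fos and Atf3), although the fitted fold changes were larger, 0.89 for Fos and 1.45 for Atf3. In that fit Psmb11, which was lower, was the 1 gene called. The mean log2 CPM of the fibroblast and pericyte markers was 4.70 to 4.72 in KO and 4.15 to 4.33 in WT, and that of the dendritic cell and macrophage markers 1.73 to 2.10 and 1.23 to 1.42, so each of these covariates separated the genotypes by itself.

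**Figure D5:**
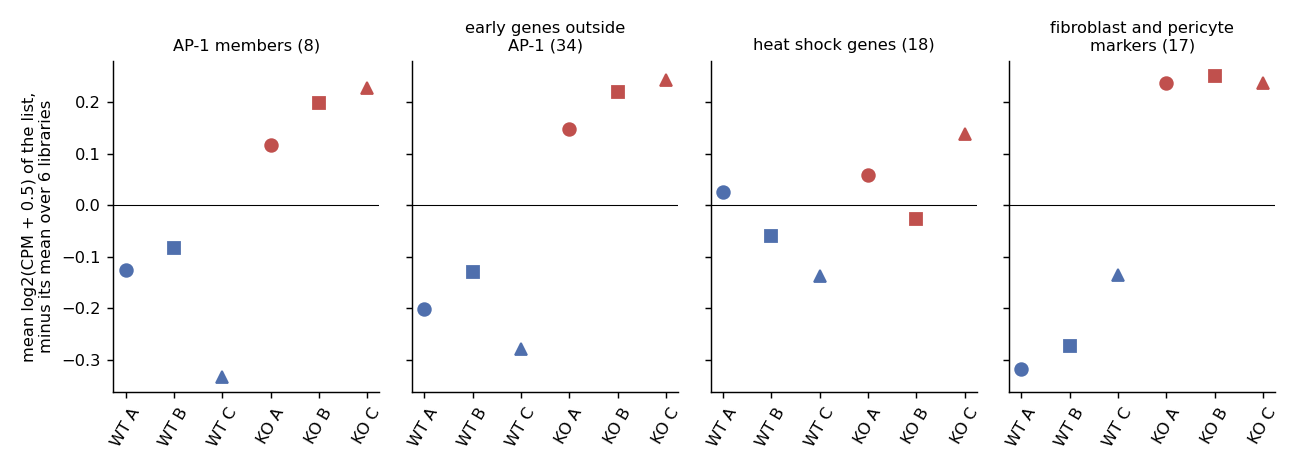
Mean log2(CPM + 0.5) of 4 gene lists in each library, minus the list's mean over the 6 libraries (y axis). The AP-1 members, the early genes and the fibroblast and pericyte markers are above 0 in the 3 KO libraries and below 0 in the 3 WT libraries, while the heat shock genes overlap.

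Upstream of AP-1 lie the MAP kinases. Of 39 genes for these kinases, their activators and serum response factors 5 rose and 3 fell, 20.5% against 23.0% of all genes, with a median log2 fold change of 0.00. The rises were Mapk11, Mapk12 and Mapk13, which encode p38 kinases (1.98-fold, 1.68-fold and 1.36-fold), Elk3, a ternary complex factor (1.47-fold), and the kinase gene Map3k8 (1.26-fold). Mapk14, the most abundant p38 gene, had 162 CPM in KO and 156 in WT and was not called (log2 fold change 0.05, edgeR adjusted p = 0.360). Mapkapk2, Fbxw7, a ubiquitin ligase subunit that targets Jun, and Mapk3, which encodes ERK1, fell by 0.20, 0.22 and 0.10 on the log2 scale. Mapk3 passed narrowly (edgeR adjusted p = 0.0473). The falls of this list numbered 2 with RLE factors, upper quartile factors or the replicate block, and 2 without any single library. Srf, serum response factor itself, had 142 ± 7.63 CPM in KO against 135 ± 2.98 in WT and was not called. The falls and the p38 genes other than Mapk11 and Mapk12 were named after their values were seen, as was Srf.

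Genes of negative feedback act on the same pathway. A list of 24 genes held MAP kinase phosphatases, Sprouty-type inhibitors, mRNA decay factors and the early genes Ier2, Ier3 and Ier5. Of these 24 genes 15 rose (62.5%, against 12.3% of all genes), Ier2 and Ier5 among them. The other 9 did not pass the test, and the median log2 fold change was 0.23. Of the 24 genes 7 are also on the early gene list. Dusp1, the phosphatase induced along with Fos, had 687 ± 41.1 CPM in KO against 514 ± 44.1 in WT (SD, n = 3 each). Dusp4 had 11.9 ± 0.555 and 5.22 ± 1.07 CPM and Dusp5 18.2 ± 0.551 and 9.03 ± 2.60 CPM, log2 fold changes of 1.18 and 1.01. Those not called included Spry1 and Spry2, Sprouty inhibitors, with log2 fold changes of 0.04 and -0.05, and the phosphatase gene Dusp7, with -0.14, all named after their values were seen.

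Other factors with a basic leucine zipper, possible partners or relatives of AP-1, were mixed. Of 25 measured 7 rose and 3 fell (40% called, against 23.0% of all genes), with a median log2 fold change of 0.05. Mafk, Maff and Cebpd rose 1.32-fold, 1.42-fold and 1.28-fold. Of the 7 rises 3, Maff and Cebpd among them, are also on the early gene list. Maf and Creb3l2 fell by 0.14 and 0.13 on the log2 scale. Jdp2, a repressor that pairs with Jun, had 35.2 ± 1.96 and 35.8 ± 2.12 CPM in KO and WT (SD, n = 3 each) and was not called. Maf, Creb3l2 and Jdp2 were named after their values were seen. Leaving out KO replicate A, or instead WT replicate B, left 1 of these genes called lower.

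Textbook AP-1 targets were higher more often than lower. Of 40 listed, 32 were expressed enough to test, and of these 20 rose and 3 fell (71.9% called, against 23.0% of all genes); the median log2 fold change was 0.47. Their summed level overlapped between the genotypes, at 4309 to 4573 CPM in KO and 4427 to 4563 CPM in WT. Tnc, which fell, was the largest part of this sum, with 2332 CPM in KO and 2603 in WT. The mean log2 CPM of the 32 genes, which weighs each gene alike, did not overlap, at 4.46 to 4.51 in KO and 3.97 to 4.10 in WT. Hbegf, an EGF receptor ligand, had 22.6 ± 0.732 CPM in KO against 10.3 ± 1.23 in WT, and Ccnd1, which encodes cyclin D1, had 107 ± 9.14 and 74.6 ± 2.80 CPM (SD, n = 3 each). Plaur, the urokinase receptor, was 3.80-fold higher and Timp1, an inhibitor of matrix metalloproteinases, 1.85-fold higher, at 6.08 and 13.0 CPM in KO. The 3 falls, named after their values were seen, were Tnc, Mmp14 and Plau, by 0.16, 0.10 and 0.16 on the log2 scale. They numbered 1 when KO replicate C was left out, when WT replicate B was, and with upper quartile factors, and 0 without KO replicate B, WT replicate A or WT replicate C (edgeR). Collagenase and stromelysin genes were scarce: Mmp1a, Mmp10 and Mmp13 had at most 0, 1 and 11 counts in any library, and Mmp3 had 2.71 ± 1.03 CPM in KO against 0.740 ± 0.480 in WT (edgeR adjusted p = 0.00733). Vim, Timp1 and Mmp3 are also expressed by fibroblasts, whose markers rose in the same libraries, and their part in these values was not tested. The Mmp genes and Vim were named after their values were seen.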

How the data were processed

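Polyadenylated RNA of 6 cTEC libraries was prepared with a stranded kit, per the labels' protocols. Per the submitters' processing notes, bcl2fastq 2.17, STAR 2.5.1b and RSEM 1.2.28 were used and the build was GRCh38, a human build, although the gene identifiers are mouse Ensembl ones; the build of the alignment is therefore uncertain. Of the authors' deposited gene counts, which are not normalized, those of the strand opposite to the read were taken. The authors also deposited RSEM estimated counts per gene and TPM values, which are scaled for length. Symbols and positions came from GENCODE M21 (GRCm38), where 50376 of 50600 identifiers matched. Gene counts were 36713388, 36706526 and 34265035 in KO replicates A to C and 34660349, 36161101 and 39224292 in WT replicates A to C.

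Genes passing filterByExpr were tested with edgeR 4.0.16 (quasi-likelihood, TMM, R 4.3.3). The SE is the log2 fold change divided by the root of the F statistic. CPM was logged after adding 0.5. Squared differences between replicates of a genotype, scaled to expected counts and pooled over genes, were 4.33 to 7.48 times those of counting noise alone. The members and lists were chosen with earlier results of these data known, and the motifs TGACG and TGACNTCA were added afterwards. Genes named by rule were Psmb11, the 8 members, of each list the 4 called genes with the smallest p, at most (up to 2 by level where none was called), and for Fos, Jun and Atf3 the 2 most alike genes of at least 20 CPM. Some genes that the rule names are not reported here. RefSeq promoters were found for 7 members. Alternatives were RLE and upper quartile factors, DESeq2 1.42.0, other filters on low counts, rounded RSEM counts, limma 3.58.1 on log2(TPM + 1) and log2(TPM + 0.1), counts without strand, a replicate block, 3 marker covariates, a test against a fold change of 1.2, robust dispersions and leaving out each library.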

Additional observations from a re-analysis of the deposited data

How the results depend on the processing

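Every alternative kept the sign of the 8 AP-1 fold changes. The members called higher numbered 5 to 8 when 1 library was left out, and Fos, Fosb, Fosl2, Jun and Atf3 were called without any single library. They numbered 4 with the heat shock covariate, 4 with the dendritic cell and macrophage covariate, 0 with the fibroblast and pericyte covariate, and 1, Atf3, against a fold change of 1.2. Over all genes, 2079 were called higher and 1820 lower. The numbers were 1169 and 758 with limma on log2(TPM + 1), 1119 and 738 with limma on log2(TPM + 0.1), 1183 and 895 with the heat shock covariate, 368 and 309 with the dendritic cell and macrophage covariate, 0 and 1 with the fibroblast and pericyte covariate, and 775 and 206 against a fold change of 1.2. Without 1 library they ranged from 1477 to 1836 higher and from 1152 to 1615 lower, the lowest both without WT replicate C. The cause of these changes was not tested. With the replicate block 7 members and 2063 genes were called higher and 1744 lower; deviations of libraries with the same letter correlated at 0.05, 0.10 and -0.07 for A, B and C, so the letters are not taken as pairs. With upper quartile factors 2221 genes were called higher and 1633 lower. Without a filter on low counts Fosl1 was still tested, and it was left out at a mean of at least 5 CPM. Low counts limit Fosl1, whose 27 to 75 counts per library allow only a coarse fold change.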
